A study of Rattus norvegicus with 24 samples.

Results

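Histone deacetylases of the zinc-dependent family, Hdac1 to Hdac9 and Hdac11, were followed in rat left ventricle after myocardial infarction (MI) and after MI with thyroxine (T4). They were chosen by symbol, and Hdac10 was not among the members followed. Of the 10 genes, 7 had a probe that the array annotation names, 1 probe each, among 22523 probes for 13337 named genes. The genes measured were Hdac1, Hdac2, Hdac3 and Hdac8 of class I, Hdac4 of class IIa, Hdac6 of class IIb and Hdac11, the only member of class IV. No probe was named Hdac5, Hdac7 or Hdac9, so class IIa was seen through Hdac4 alone. All 7 probes entered the tests, since no filter on low values was applied.

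RNA came from non-infarcted areas of the left ventricle of 12 female Sprague-Dawley rats aged 3 months, 4 in each group, at 4 weeks after surgery. MI+T4 rats had the left anterior descending coronary artery tied and were given a slow-release T4 pellet. MI rats had the same ligation with a placebo pellet, and Sham rats had a loose suture with a placebo pellet. Every rat thus had surgery and a pellet, the Sham rats included, and rats with very small or very large infarcts had been excluded by the authors. Each rat was hybridized to 2 Illumina RatRef-12 arrays, 1 on each of 2 BeadChips, which gave 24 arrays, and the rat was the unit of replication. Levels are normalized array signals on a log2 scale, the mean of a rat's 2 arrays, so that a difference of 1 is a doubling of signal. They compare a gene between rats and not 1 gene with another.

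Histone deacetylases remove acetyl groups from lysines of histones and other proteins, and in chromatin this generally goes with repression. Class I enzymes work inside nuclear corepressor complexes. Class IIa enzymes have little catalytic activity of their own, bind MEF2 transcription factors and leave the nucleus when calcium-dependent kinases phosphorylate them and 14-3-3 proteins hold them in the cytoplasm. In mouse heart, class IIa members restrain hypertrophic growth while class I activity, Hdac2 in particular, has been tied to it. Thyroid hormone receptors without hormone recruit Hdac3 through corepressor proteins, and hormone releases that complex.

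The 300-base promoter sequences of Hdac2 and Hdac1 are shown because these 2 enzymes share the same corepressor complexes and only Hdac2 passed the test after MI (the difference between the 2 genes was not tested), and because T4 was the treatment. They run 5′ to 3′ on the strand of the gene, from 250 bases before to 50 bases after the RefSeq start site of the GRCr8 assembly. Capitals mark a GC box (GGGCGG, the motif of Sp family factors) or a thyroid hormone receptor half-site (AGGTCA) on either strand, overlapping matches included.
Hdac2 (chr20:42102877-42103176, plus strand): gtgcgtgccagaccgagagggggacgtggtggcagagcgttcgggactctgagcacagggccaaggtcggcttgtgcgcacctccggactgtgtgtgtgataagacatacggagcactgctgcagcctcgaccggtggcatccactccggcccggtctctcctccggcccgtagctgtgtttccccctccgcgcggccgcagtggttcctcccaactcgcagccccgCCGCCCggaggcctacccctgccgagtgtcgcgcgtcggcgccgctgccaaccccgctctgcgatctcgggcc
Hdac1 (chr5:147165338-147165637, minus strand): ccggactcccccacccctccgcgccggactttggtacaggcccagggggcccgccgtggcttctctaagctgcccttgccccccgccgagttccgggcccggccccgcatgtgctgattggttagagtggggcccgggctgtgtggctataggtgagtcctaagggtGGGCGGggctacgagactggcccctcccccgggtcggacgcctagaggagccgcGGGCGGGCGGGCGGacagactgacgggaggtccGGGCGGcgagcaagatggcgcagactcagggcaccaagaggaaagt
The Hdac2 promoter held 1 GC box, 33 CpG dinucleotides and 70% G and C, and the Hdac1 promoter held 5 GC boxes, 27 CpG dinucleotides and 71.0% G and C. Over 33469 promoters of the same length, 33.06% held a GC box and the medians were 7 CpG dinucleotides and 51.67% G and C. Neither sequence held the half-site, which 16.18% of the promoters did. Of the 6 measured members with a promoter entry, Hdac8 was the only one with a half-site (TGACCT on the strand of the gene). Its promoter was also the only one of the 6 without a GC box. A match is a description of the letters only.

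The largest difference of the family between infarcted and Sham hearts was in class I. Hdac2, a catalytic subunit of the NuRD, Sin3 and CoREST corepressor complexes, was lower in non-infarcted muscle of MI rats than in Sham rats. Its level was 9.35, 9.83, 9.79 and 9.24 in MI replicates 5 to 8, against 10.20, 10.13, 10.11 and 10.36 in Sham replicates 1 to 4. Every MI rat lay below every Sham rat, with a gap of 0.27 between the groups. The mean was 9.55 ± 0.30 in MI rats and 10.20 ± 0.11 in Sham rats (SD, n = 4 each). Hdac2 fell by 0.65 on the log2 scale in MI rats (SE 0.148), a ratio to Sham of 0.639 (95% interval 0.518 to 0.788).

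This difference passed in the limma model with the rat as block (adjusted p = 0.0125). It ranked 279 of 22523 probes by p, and 0.373% of probes differed by as much in either direction. The same model fitted to 12 rat means gave an adjusted p of 0.273 (unadjusted p = 0.00808), with an interval for the ratio of 0.469 to 0.870. The exact two-sided permutation test on the rat means gave p = 0.0286, the smallest that 4 rats against 4 allow. The limma model took a rat's 2 arrays to correlate at 0.243 for every probe, whereas for Hdac2 alone the value was 0.872, so its SE in that model can be too small. No probe at all passed in MI against Sham on rat means, where 2561 (11.4%) had an unadjusted p under 0.05.

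The MI group was split in its Hdac2 levels. Replicates 5 and 8 were at 0.555 and 0.516 of the Sham mean, and replicates 6 and 7 at 0.776 and 0.751. The call was lost without MI replicate 5 (log2 difference -0.58, adjusted p = 0.0748 in limma) and without MI replicate 8 (-0.54, adjusted p = 0.0985). It held without any other single MI or Sham rat. With the 3 rats lowest in Hdac2 left out together (MI replicates 5 and 8 and MI+T4 replicate 7), the difference was -0.39 (adjusted p = 0.242) and that of Hdac11 was -0.23 (adjusted p = 0.285). A smaller Hdac2 difference follows from that choice, which was made after the values had been seen, and with 2 MI rats left the calls over all probes numbered 86, against 814 with all rats.

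Hdac2 in MI+T4 rats spanned a wider range than in either other group. It was 9.42, 9.94, 9.05 and 10.12 in MI+T4 replicates 5 to 8, a mean of 9.63 ± 0.49 (SD, n = 4), against 9.55 ± 0.30 in MI rats. The lowest and the highest of the 8 infarcted rats were both in the MI+T4 group, replicates 7 and 8. The log2 difference between MI+T4 and MI was 0.08 (SE 0.148, adjusted p = 0.973 in limma). On rat means the interval of the ratio ran between 0.776 and 1.44, so neither a lower nor a higher level with T4 of that size was excluded.

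Compared with Sham rats, 3 of the 4 MI+T4 rats lay below all Sham rats and replicate 8, at 10.12, lay within their range. The log2 difference was -0.57, a ratio of 0.675, with an adjusted p of 0.0506 in limma (0.534 on rat means; exact permutation p = 0.0571). Without MI+T4 replicate 8 it was -0.73 (adjusted p = 0.00375), and without MI+T4 replicate 6 it was -0.67 (adjusted p = 0.0366). Without MI+T4 replicate 7 it was -0.37 (adjusted p = 0.314), and without MI+T4 replicate 5 it was -0.50 (adjusted p = 0.193). Both comparisons with Sham share the 4 Sham rats, and the comparison of MI+T4 with MI shares rats with each of them.

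**Figure D1:**
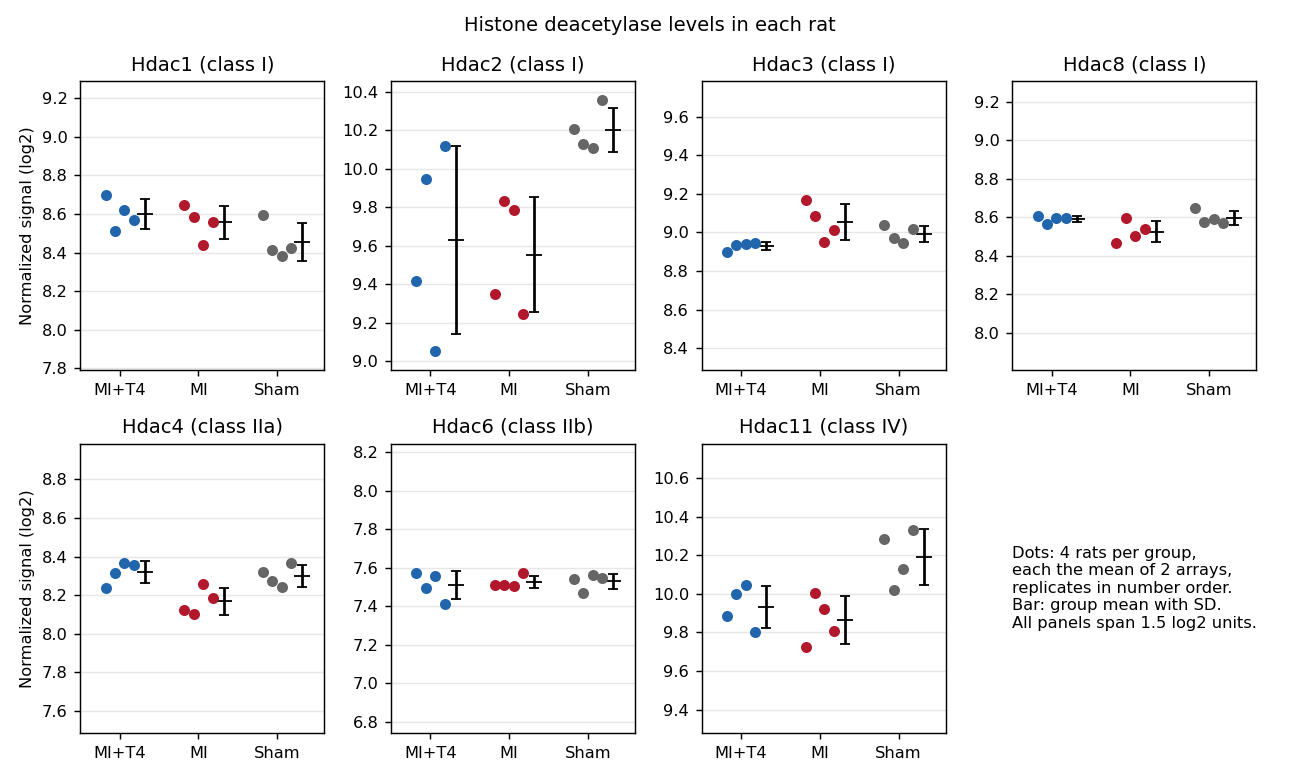
Normalized signal (log2) of the 7 measured histone deacetylases in each rat, with MI+T4, MI and Sham from left to right. Dots are the means of a rat's 2 arrays, bars the group mean with SD over 4 rats, and each panel spans 1.5 log2 units; Hdac2 and Hdac11 are the panels in which all 4 MI rats lie below all 4 Sham rats.

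Hdac1, the paralog that pairs with Hdac2 in the same complexes, had a slightly higher mean in MI than in Sham, which did not pass. It was 8.70, 8.51, 8.62 and 8.57 in MI+T4 replicates 5 to 8, 8.65, 8.58, 8.44 and 8.56 in MI replicates 5 to 8, and 8.60, 8.42, 8.38 and 8.42 in Sham replicates 1 to 4. The groups overlapped in every comparison. The log2 difference was 0.10 for MI against Sham (adjusted p = 0.393 in limma), 0.04 for MI+T4 against MI (adjusted p = 0.944) and 0.15 for MI+T4 against Sham (unadjusted p = 0.00991, adjusted p = 0.237). The rat genome holds copies of Hdac1: RefSeq annotates 18 Hdac1 pseudogenes and the near-identical gene Hdac1l, and how far the Hdac1 probe also reads their transcripts was not tested.

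Hdac1l itself had 2 probes, which went opposite ways between MI and Sham. Probe ILMN_1376865 averaged 7.82 in MI rats and 7.73 in Sham rats (log2 difference 0.09, adjusted p = 0.317 in limma), with no overlap between the groups, as for 2.63% of all probes with MI higher. Probe ILMN_1376057 averaged 7.66 in MI rats and 7.73 in Sham rats (log2 difference -0.07, adjusted p = 0.674). Neither passed.

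Hdac3, the catalytic subunit of the NCoR complex, was the member whose MI+T4 rats stood below all MI rats. It was 8.90, 8.93, 8.94 and 8.95 in MI+T4 replicates 5 to 8, against 9.17, 9.09, 8.95 and 9.01 in MI replicates 5 to 8. The gap between the groups was only 0.0055, and 2.99% of all probes did not overlap between MI+T4 and MI, 1.36% with MI+T4 lower. The log2 difference was -0.13 (SE 0.0544), a ratio of 0.917, with an unadjusted p of 0.0286 and an adjusted p of 0.588 in limma, so it did not pass.

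In Sham rats Hdac3 was 9.04, 8.97, 8.95 and 9.02. MI rats differed from them by 0.06 (adjusted p = 0.724) and MI+T4 rats by -0.06 (adjusted p = 0.830). The spread within MI+T4 rats was small (SD 0.0201, against 0.0942 in MI rats and 0.0420 in Sham rats). The arrays of 1 rat differed by a median of 0.0807 for this probe, which is more than the SD of the MI+T4 rats.

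Hdac8, a class I enzyme that acts outside the large corepressor complexes and deacetylates the cohesin subunit SMC3, hardly varied. Its levels lay between 8.57 and 8.60 in the MI+T4 group, 8.47 and 8.60 in MI, and 8.57 and 8.65 in Sham. The log2 difference was -0.07 for MI against Sham (adjusted p = 0.498), 0.06 for MI+T4 against MI (adjusted p = 0.804) and -0.005 for MI+T4 against Sham (adjusted p = 0.992). On rat means the ratio of MI+T4 to MI had a 95% interval of 0.992 to 1.10.

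Hdac4, the class IIa member and a repressor of MEF2, had its lowest mean in MI rats. It was 8.24, 8.31, 8.37 and 8.36 in MI+T4 replicates 5 to 8, 8.12, 8.10, 8.26 and 8.19 in MI replicates 5 to 8, and 8.32, 8.27, 8.24 and 8.37 in Sham replicates 1 to 4. In MI, 3 of 4 rats lay below all Sham rats, and in MI+T4, 3 of 4 rats lay above all MI rats. MI differed from Sham by -0.13 (SE 0.0490, unadjusted p = 0.0120, adjusted p = 0.153 in limma). MI+T4 differed from MI by 0.15 (unadjusted p = 0.00471, adjusted p = 0.353), a ratio of 1.11 with a rat-mean interval of 1.04 to 1.19. Neither difference passed, and MI+T4 and Sham means were 8.32 and 8.30. Because the same 4 MI rats stand in both comparisons, a low value among them moves both differences together.

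Hdac6, a largely cytoplasmic enzyme that deacetylates alpha-tubulin, had the same mean in all groups to within 0.02. The group means were 7.51 ± 0.07 in MI+T4, 7.53 ± 0.03 in MI and 7.53 ± 0.04 in Sham rats (SD, n = 4 each). Adjusted p-values in limma were 0.967 or higher in the 3 comparisons. The probe was dim, at the 19.8 percentile of all probe means, and whether it rose above the background of the array is not known, since no detection call was matched to a sample.

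Hdac11, the class IV enzyme, best known for removing long-chain fatty acyl groups from lysine, was the second member that was lower after MI. It was 9.73, 10.004, 9.92 and 9.81 in MI replicates 5 to 8, against 10.28, 10.02, 10.13 and 10.33 in Sham replicates 1 to 4. All MI rats lay below all Sham rats, but MI replicate 6 and Sham replicate 2 were only 0.016 apart. Hdac11 fell by 0.33 on the log2 scale (SE 0.0652), a ratio of 0.798 (95% interval 0.727 to 0.875), with an adjusted p of 0.00525 in limma and rank 121 of 22523 by p. A rat's 2 arrays correlated at 0.708 for Hdac11 alone, so its SE in limma can be too small, as for Hdac2. On rat means the adjusted p was 0.204 (unadjusted p = 0.00150) and the exact permutation p was 0.0286. Unlike that of Hdac2, this call held when any single MI or Sham rat was left out.

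In MI+T4 rats Hdac11 was 9.88, 9.998, 10.045 and 9.81, against the 9.73 to 10.004 of MI rats. The log2 difference between MI+T4 and MI was 0.07 (adjusted p = 0.911), with a rat-mean interval of the ratio of 0.929 to 1.18. MI+T4 rats differed from Sham rats by -0.26 (ratio 0.836, adjusted p = 0.0417 in limma, 0.427 on rat means, exact permutation p = 0.0571), and 3 of 4 lay below all Sham rats. This call was narrow. It was lost without any 1 of the 4 MI+T4 rats (adjusted p between 0.0569 and 0.144) and without Sham replicate 1, 3 or 4 (0.0661 to 0.186), and it was also lost with the BeadChip as a term (0.0524).

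Counted together, 2 members passed as lower in MI against Sham (Hdac2 and Hdac11), 0 as higher, and 5 did not pass. The paper lists both Hdac2 and Hdac11 among the genes altered by MI in this study, so these calls are not independent evidence. Of all 22523 probes, 3.61% were called in this comparison, 1.72% as lower and 1.89% as higher, and 5.8% did not overlap between the groups, 3.17% with MI lower. The median log2 difference of the 7 members was -0.07, against -0.0044 over all probes. Between MI+T4 and MI, 0 of 7 members passed, as did 0 of 22523 probes (0% called in either direction; 1670 or 7.41% at an unadjusted p under 0.05, and 2 of the members, Hdac3 and Hdac4). The median of the members was 0.06. The paper reported genes altered by T4 from a moderated F-statistic over detected genes only, which is another test and filter. A nested F test on the present fit called 94 probes between MI+T4 and MI, and 0 members. Between MI+T4 and Sham, 1 member was lower (Hdac11) and 6 did not pass, with 1.26% of probes called, 0.537% as lower and 0.719% as higher, and a median of -0.02. With rat means no member passed in any comparison.

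**Figure D2:**
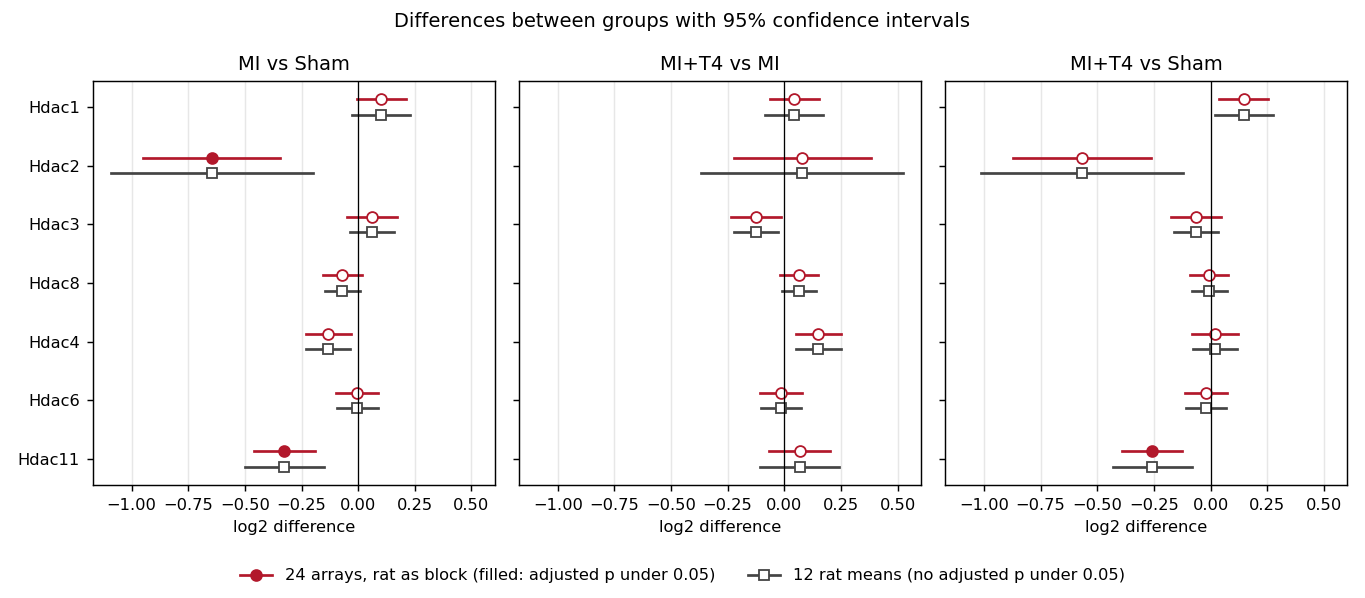
log2 difference of each measured histone deacetylase in the 3 comparisons, with 95% confidence intervals. Circles are the fit to 24 arrays with the rat as block and squares the fit to 12 rat means; filled circles have an adjusted p under 0.05, which holds for Hdac2 and Hdac11 in MI against Sham and for Hdac11 in MI+T4 against Sham.

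The lowest Hdac2 levels stood in the rats with the highest atrial, fibroblast and macrophage markers. The tissue was labelled as left ventricle, and the 8 measured cardiomyocyte markers were bright in every rat (mean level 13.997 to 14.07 in MI+T4, 13.81 to 14.02 in MI and 13.93 to 14.06 in Sham rats). Over all probes 1.89% were called higher in MI than in Sham. Of 11 fibroblast markers, such as the collagen genes Col1a1 and Col3a1, 5 passed between MI and Sham, all 5 with MI higher (median log2 difference 0.66). Their mean level was 11.78 to 12.79 in MI+T4 rats, 12.04 to 13.19 in MI rats and 11.78 to 12.29 in Sham rats. An array signal has no true zero, so no marker could be called absent.

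Rat by rat, the median of the fibroblast markers relative to the Sham mean was 0.35, 0.19, 0.89 and -0.08 in MI+T4 replicates 5 to 8. It was 1.19, 0.26, -0.04 and 1.17 in MI replicates 5 to 8, and between -0.19 and 0.19 in Sham rats. The median of the atrial muscle genes (Nppa, Myl7, Dkk3 and Pam) was 1.78, 0.47, 2.01 and 0.41 in MI+T4 replicates 5 to 8, 1.68, 0.83, 0.54 and 1.55 in MI replicates 5 to 8, and between -0.59 and 0.54 in Sham rats. The paper lists Nppa, Dkk3 and Pam among the genes altered by MI, and Nppa is also in the fetal and stress list below. Whether the atrial median reflects atrial tissue was not tested. That of the macrophage markers was 0.51, 0.16, 0.69 and -0.08 in MI+T4 replicates 5 to 8, 0.32, 0.32, 0.20 and 0.69 in MI replicates 5 to 8, and between -0.38 and 0.23 in Sham rats.

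MI replicates 5 and 8 and MI+T4 replicates 5 and 7 were the 4 highest rats in each of these 3 lists. In the macrophage list the margin was narrow, with 0.318 in MI replicate 5 against 0.315 in MI replicate 6. The cardiomyocyte medians of these rats did not all go 1 way. They were 0.10 in MI+T4 replicates 5 and 7, -0.19 in MI replicate 5 and -0.008 in MI replicate 8. The same 4 rats were the 4 lowest in Hdac2. Below these 4 the order did not hold: MI replicate 7 had a fibroblast median of -0.04, within the Sham range, but its Hdac2 level was 0.751 of the Sham mean, lower than in MI replicate 6 (0.776) and MI+T4 replicate 6 (0.837), whose fibroblast medians were higher. The part of these markers in the results was not tested, and in bulk tissue fewer cells of a type and less RNA per cell cannot be told apart.

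Of 6 macrophage markers 0 passed between MI and Sham (median 0.35), with mean levels of 9.54 to 10.29 in MI+T4 rats, 9.81 to 10.30 in MI rats and 9.29 to 9.88 in Sham rats. Of 4 red blood cell genes 2 were higher in MI (median 0.35), and of 4 genes of atrial muscle 3 were higher (median 1.00), among them the natriuretic peptide gene Nppa. None of 8 cardiomyocyte, 6 endothelial, 4 smooth muscle and pericyte or 6 lymphocyte and leukocyte markers passed. Hdac11 did not follow the same order: MI+T4 replicate 7, with the lowest Hdac2 level, had the highest Hdac11 level of the infarcted rats (10.045), and the part of any marker in its result was not tested.

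**Figure D3:**
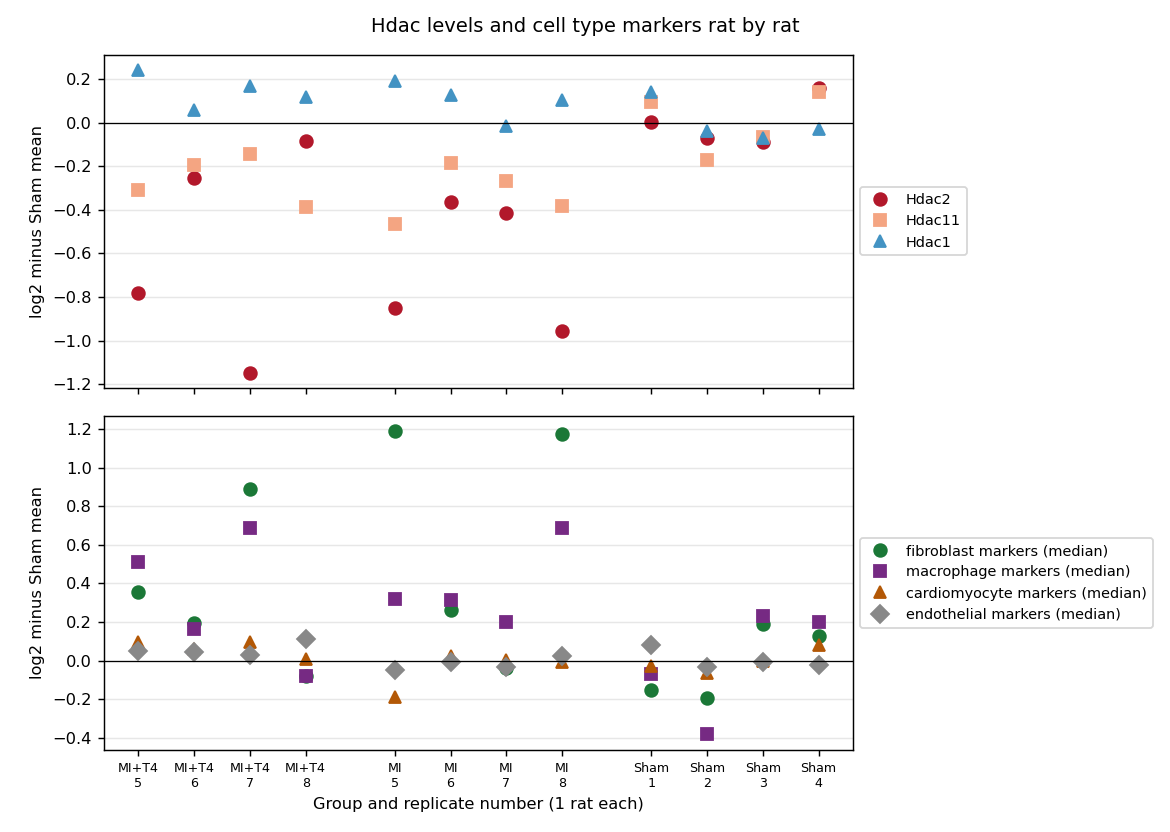
log2 level of each rat minus the Sham mean, for Hdac2, Hdac11 and Hdac1 (upper panel) and for the median of the fibroblast, macrophage, cardiomyocyte and endothelial markers (lower panel), with the rats of MI+T4, MI and Sham from left to right. MI replicates 5 and 8 and MI+T4 replicate 7 have the highest fibroblast medians (1.19, 1.17 and 0.89) and the lowest Hdac2 values, while MI replicate 7 has a fibroblast median within the Sham range and an Hdac2 value below all Sham rats.

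The named genes whose levels over the 12 rats were most like those of Hdac2 were Eci1, Hint2 and Macrod1. Pearson's r over 12 rats was 0.964 for Eci1, an isomerase of mitochondrial fatty acid oxidation, 0.962 for Hint2, a mitochondrial nucleotide hydrolase, and 0.957 for Macrod1, a hydrolase of ADP-ribose. With the group means taken out, r was still 0.936, 0.954 and 0.913. Eci1 was 13.997, 14.22, 13.62 and 14.30 in MI+T4 replicates 5 to 8, 13.84, 14.07, 14.12 and 13.63 in MI replicates 5 to 8, and 14.38, 14.26, 14.47 and 14.44 in Sham replicates 1 to 4. The same 3 rats that were lowest in Hdac2 were lowest in Eci1.

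For Hdac11 the genes most alike were Nprl3, a subunit of the GATOR1 complex that restrains mTORC1 (r = 0.913), Tafazzin, which remodels cardiolipin (r = 0.873), and Zfp358, a zinc finger gene (r = 0.871). With the group means taken out, these values were 0.761, 0.642 and 0.872. All 6 were picked as the highest of 13337 genes, and the 12 points share their arrays and their group differences, so the values only describe likeness.

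Partners of class I enzymes gave no calls. Of 33 genes of the NuRD, Sin3, CoREST and NCoR complexes, 20 were measured, and 0 passed in any of the 3 comparisons. Their median was -0.01 in MI against Sham and 0.01 in MI+T4 against MI. The smallest p of MI against Sham belonged to Arid4b, a Sin3 complex subunit, which was higher by 0.20 with an adjusted p of 0.0915.

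The enzymes that add acetyl groups and the proteins that read them did not pass either. Of 13 acetyltransferases and coactivators 7 were measured, with 0 called in any comparison and medians of -0.01 in MI against Sham and 0.01 in MI+T4 against MI. Kat5 had the smallest p of MI against Sham (log2 difference -0.11, adjusted p = 0.191). The BET readers Brd2 and Brd3 differed by 0.08 or less in MI against Sham and by -0.06 and -0.05 in MI+T4 against MI.

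Of the sirtuins, the NAD-dependent deacylases, 6 of 7 were measured and 1 was lower in MI, as were 1.72% of all probes. Sirt5, a mitochondrial desuccinylase, was 12.50, 12.69, 12.73 and 12.37 in MI replicates 5 to 8, against 12.85, 12.95, 12.69 and 12.79 in Sham replicates 1 to 4. The groups overlapped, since Sham replicate 3 was below MI replicate 7. The log2 difference was -0.25 (adjusted p = 0.0325 in limma, 0.274 on rat means), and the call held in 6 of 18 other settings and was lost without MI replicate 5 or 8 or Sham replicate 1, 2 or 4, each left out alone. The list had a median of -0.13 in MI against Sham, with 5 of 6 members negative, and of 0.09 in MI+T4 against MI, where 0 passed.

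Genes that set where class IIa enzymes reside gave 3 calls of 26 measured, all higher in MI. Over all probes 1.89% were called higher. Camkk1, which activates calmodulin-dependent kinases, was 9.37, 8.54, 8.78 and 9.07 in MI replicates 5 to 8, against 8.35, 8.42, 8.54 and 8.62 in Sham replicates 1 to 4. The groups overlapped, and MI replicates 5 and 8 were again the extremes. The difference was 0.46 (adjusted p = 0.0235 in limma, 0.329 on rat means). The 14-3-3 genes Ywhaq (0.30, adjusted p = 0.0310) and Ywhaz (0.20, adjusted p = 0.0409) were the other 2, with adjusted p-values of 0.304 and 0.273 on rat means. All 3 calls were lost without MI replicate 5, and all 3 without MI replicate 8. Leaving out 1 Sham rat also ended the call of Camkk1 (replicate 1, 2 or 3), Ywhaq (replicate 2, 3 or 4) and Ywhaz (any of the 4).

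In MI+T4 against MI, 0 of the 26 passed. Ywhaq had the smallest p among them, with 11.28, 11.30, 11.47 and 11.05 in MI+T4 replicates 5 to 8, against 11.86, 11.51, 11.36 and 11.73 in MI replicates 5 to 8. MI+T4 replicate 7 lay above MI replicate 7, so the groups overlapped. The difference was -0.34, with an adjusted p of 0.136 in limma. The paper lists Ywhaq among the genes altered by T4, from another test and filter on the same arrays. In MI+T4 against Sham, Prkd2, a protein kinase D that phosphorylates class IIa enzymes, was higher by 0.18 (adjusted p = 0.0371 in limma, 0.306 on rat means), a call that held in 5 of 18 other settings and was lost without MI+T4 replicate 5, 6 or 7 or Sham replicate 2, 3 or 4.

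The transcription factors that class IIa enzymes bind gave 0 calls of 11 measured in each comparison. Nfatc4, a calcineurin-regulated factor, differed by 0.26 between MI and Sham (adjusted p = 0.0747), and the cardiac factor Nkx2-5 by -0.19 (adjusted p = 0.116). Mef2a and Mef2c had no named probe.

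In MI against Sham, where 1.89% of all probes were called higher, the fetal and stress genes gave 6 calls of 10 measured. All 6 were higher, and the list median was 0.63. Class IIa enzymes restrain fetal genes such as Nppa and Nppb in mouse heart. Whether they act on each gene of the list was not tested. Several of them are genes that the study itself names from these rats, so the list is not independent evidence of a direction. Tnfrsf12a, the receptor of the cytokine TWEAK, had the smallest p, with 10.27, 10.001, 10.30 and 10.39 in MI replicates 5 to 8, against 9.51, 9.75, 9.51 and 9.48 in Sham replicates 1 to 4. It was higher by 0.68 (adjusted p = 9.85e-06 in limma, 0.0661 on rat means). Nppa, Nppb and Ccn2 were higher by 2.26, 0.88 and 0.76.

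In MI+T4 against MI 0 of the 10 passed (median 0.06), and in MI+T4 against Sham 5 were higher, as were 0.719% of all probes. For Tnfrsf12a the MI+T4 levels were 10.53, 10.26, 10.37 and 10.59, and the difference from Sham of 0.88 passed on rat means too (adjusted p = 0.0131), the only probe of all 22523 that did (0.00444%). Without the 3 rats lowest in Hdac2, 2 of the 10 genes were called in MI against Sham and 5 in MI+T4 against Sham, while the counts of every other list of Hdac-related genes were 0 in all 3 comparisons.

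Of 7 measured genes tied to class I signaling or repression in heart, 1 was higher in MI, as were 1.89% of all probes. Klf4, a transcription factor that inhibitors of histone deacetylases raise in rat heart cells, was 11.04, 10.97, 11.17 and 11.15 in MI replicates 5 to 8, against 10.90, 10.76, 10.79 and 10.43 in Sham replicates 1 to 4. All MI rats were above all Sham rats, as for 2.63% of all probes. The difference was 0.36 (adjusted p = 0.00546 in limma, 0.224 on rat means). The paper lists Klf4 among the genes altered by MI in this study, so its call is not independent evidence. In MI+T4 rats Klf4 was 11.18, 10.94, 11.04 and 10.85, higher than Sham by 0.29 (adjusted p = 0.0465), a call that held in 4 of 18 other settings and was lost without the same single rats as that of Prkd2. Without Sham replicate 4 the MI+T4 difference from Sham was 0.19 (adjusted p = 0.222). Inpp5f, Hopx and the other members did not pass.

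Substrates and partners of Hdac6 gave 2 calls of 11 in MI against Sham, the alpha-tubulin genes Tuba1a (0.42, adjusted p = 0.0278 in limma, 0.342 on rat means) and Tuba1b (0.31, adjusted p = 0.0439 in limma, 0.365 on rat means), both higher. Over all probes 1.89% were called higher. Tuba1a was 14.91, 14.33, 14.10 and 14.45 in MI replicates 5 to 8, against 13.95, 14.22, 14.10 and 13.84 in Sham replicates 1 to 4. MI replicate 7 was within the Sham range, and both calls were lost without MI replicate 5 and without MI replicate 8. Without MI replicate 5 the Tuba1a difference was 0.26 (adjusted p = 0.195). They were also lost without 1 Sham rat, replicate 1, 3 or 4 for Tuba1a and any of the 4 for Tuba1b. Alpha-tubulin genes are near-identical in their coding sequence, so how far each probe reads 1 gene was not tested. In MI+T4 against MI 0 of 11 passed, with the smallest p for Sqstm1, the autophagy receptor p62 (0.24, adjusted p = 0.142).

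**Figure D4:**
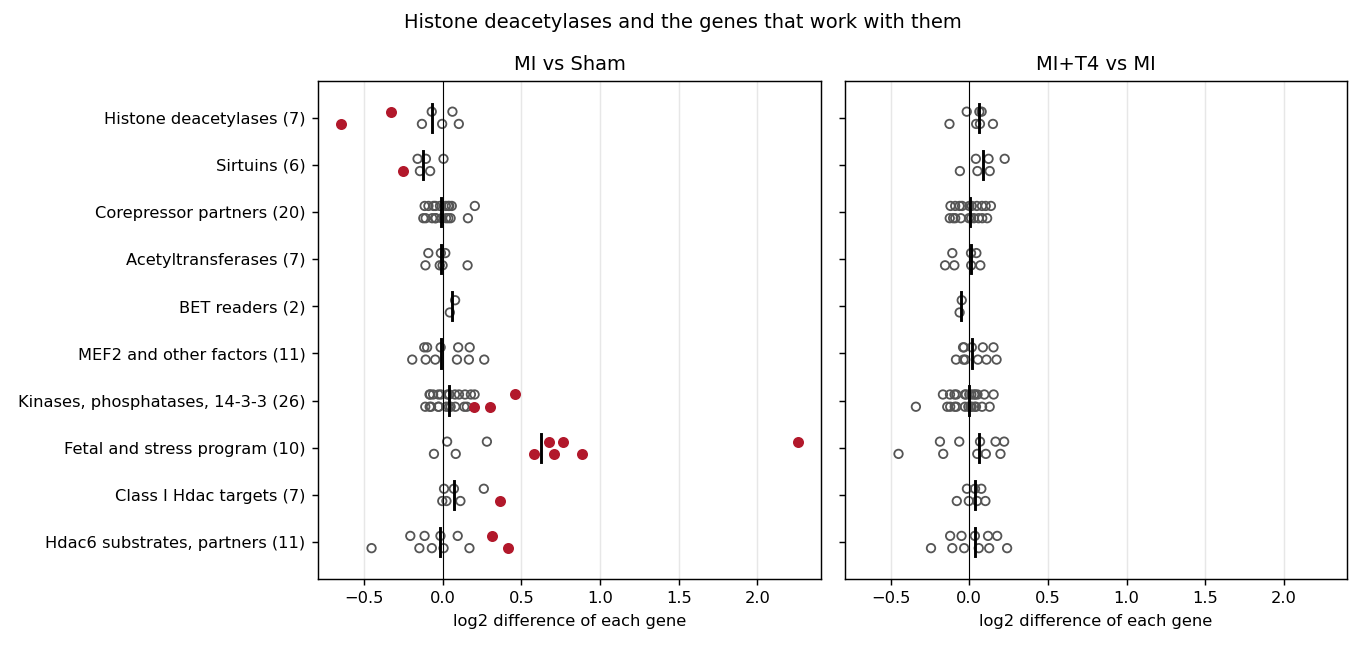
log2 difference of each measured gene in MI against Sham (left) and MI+T4 against MI (right), for the histone deacetylases and 9 lists of genes that work with them, with the number of genes in brackets. Filled dots have an adjusted p under 0.05 in limma with the rat as block and black bars are list medians; the left panel holds the 2 lower Hdacs and 6 filled fetal and stress genes, and the right panel holds no filled dot.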

How the data were processed

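The authors stabilized the variance of the signals and normalized the arrays by robust splines, and the deposited values were read as log2 intensity. They lay between 6.88 and 16.47, with array medians of 7.81 to 7.82. A table of non-normalized signals was left out, since its 48 columns carry BeadChip positions and no sample names, so no detection filter was applied. The number of rats, 4 in a group with 2 arrays each, limits the precision. Arrays of a rat correlated at 0.9966 to 0.9975, and 24 of 24 arrays were closest to their own rat. Probes were named through the array annotation and RefSeq (GRCr8): 13793 had 1 symbol and 8730 had none. The brightest probe stood for a gene.

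Using R 4.3.3 with limma 3.58.1 and statmod 1.5.0, all 22523 probes were fitted with 3 group means, the rat as block (consensus correlation 0.243, as in the study's methods) and eBayes. Benjamini-Hochberg adjustment ran over all probes of a comparison, with a threshold of 0.05. The probes called in MI against Sham had a median own correlation of 0.761, so the fit was repeated on rat means. Members and lists were chosen with earlier results of these data known. The text names every member, up to 4 called genes of a list or otherwise those with the smallest p, and the 3 genes most like each called member. The scripts were tested on simulated data. There the fit with the rat as block made more false calls than its threshold allows, while the fit on rat means did not. Figures used matplotlib 3.10.9 in Python 3.11.15.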

Additional observations from a re-analysis of the deposited data

Results flagged for a closer look

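Of 21 sets of 4 rats, 7 members in 3 groups, 1 held a rat far from the other 3: Hdac6 in MI, where replicate 8 was the highest at 7.58 and the others lay between 7.504 and 7.512. About 1 set in 20 stands out so by chance.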

How the results depend on the processing

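In MI against Sham, where 2 members were called, 2 were called with the BeadChip as a term, nested F, the compared groups alone, quantile normalization, a trended and robust prior or the brighter 50% of probes. The count was 0 on rat means, with the arrays of technical replicate 1 alone, with those of replicate 2 alone and without 3 rats together (MI replicates 5 and 8 and MI+T4 replicate 7, a choice made after seeing the data). It was 1 to 2 with each rat left out. In MI+T4 against Sham, where 1 was called, the count was 2 by nested F and with the compared groups alone, both adding Hdac2. It was 0 with the BeadChip term, either technical replicate alone, the brighter 50%, rat means and the trended and robust prior, and 0 to 1 with each rat left out. Without MI+T4 replicate 6 or 8 the called member was Hdac2 and not Hdac11. In MI+T4 against MI it was 0 in all settings, rats left out included.

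The counts of all called probes ran between 0 and 1574 in MI against Sham, 0 and 94 in MI+T4 against MI, and 1 and 585 in MI+T4 against Sham. No called member changed direction in any setting. Why the counts moved was not tested beyond the fewer arrays or rats of some settings. MI and MI+T4 share replicate numbers 5 to 8. The deviations of same-numbered rats correlated at 0.111, 0.254, -0.534 and -0.484, and those of differently numbered rats at -0.318 to 0.55. These few values cannot decide whether the numbers pair rats, and no label says so, so the rats were taken as unpaired. With the replicate number as a block on rat means, 0 members were called. Each member had 1 probe, so another probe could not be tried, and Hdac6 left the brighter 50% of probes.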
